A study of Mus musculus with 18 samples.

Results

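NF-kB is a family of transcription factors that work as pairs of related proteins sharing a Rel homology domain, and in most resting cells these pairs are held in the cytoplasm by inhibitors of the IkB family. Signals from receptors for TNF, interleukin-1 or microbial products activate a kinase complex that marks the IkB proteins for destruction, so that the pairs enter the nucleus, while a slower branch driven by other TNF-family receptors leads through the kinase encoded by Map3k14 to the processing of the Nfkb2 precursor, the partner of RelB. Several of the inhibitors and subunits are themselves known targets of NF-kB, and atypical IkB proteins act inside the nucleus, where they join NF-kB on DNA and alter its output. In ovarian and other carcinomas the pathway is known for driving cytokines and survival genes in the cancer cells.

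The genes described here are a fixed list of 10 NF-kB and IkB genes among the 54752 genes of the count table. The list holds the 5 subunits (Nfkb1, Nfkb2, Rel, Rela and Relb), the 3 classical cytoplasmic inhibitors (Nfkbia, Nfkbib and Nfkbie) and the 2 nuclear IkB genes Nfkbiz and Bcl3. All 10 were matched by symbol to 1 Ensembl identifier each, and all 10 passed the filter on low counts in every comparison. On GRCm38 the subunit genes lie at chr3:135584655-135691547 (Nfkb1, minus strand), chr19:46304320-46312385 (Nfkb2, plus strand), chr11:23736847-23770970 (Rel, minus strand), chr19:5637483-5648130 (Rela, plus strand) and chr7:19606217-19629438 (Relb, minus strand). The IkB genes lie at chr12:55489410-55492647 (Nfkbia, minus strand), chr7:28758251-28767512 (Nfkbib, minus strand), chr17:45555703-45563169 (Nfkbie, plus strand), chr16:55811375-55838899 (Nfkbiz, minus strand) and chr7:19808462-19822770 (Bcl3, minus strand). RNA from mouse ovarian cancer cells and tumors was sequenced to examine the loss of B7-H3, the cell surface protein of the B7 family encoded by Cd276. There were 6 groups of 3 libraries each. ID8 cells in culture (strain C57BL6, a line that arose from ovarian surface epithelium of the mouse) were labelled Cd276KO or control. Tumors of HM-1 cells, grown in the skin of B6C3F1 mice and taken on day 10, were labelled Cd276KO or control, and so were HM-1 cells in culture (strain B6C3F1). The titles call the 3 libraries of each group biological replicates, without saying what a replicate was. How the gene was disrupted, what the control cells carried and whether a line was 1 clone are not given in the labels. Nor do they give how many mice or cultures gave the libraries. A p-value therefore reflects only how these libraries spread, part of which may be technical. Tumor RNA holds the cancer cells together with the host cells of the tumor.

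Total counts were 17349082 to 30959773 per library, and levels below are counts per 1000000 of that total (CPM). Cd276 itself had 18.3, 18.8 and 21.0 CPM in ID8 cells labelled Cd276KO, against 21.1, 21.1 and 20.6 CPM in ID8 controls, so its RNA level does not check the ID8 label. It had 73.2, 97.2 and 89.5 CPM in tumors labelled Cd276KO, against 142, 107 and 116 CPM in control tumors. It had 47.2, 47.7 and 44.8 CPM in HM-1 cells labelled Cd276KO, against 74.2, 93.5 and 91.5 CPM in HM-1 control cells. A gene count cannot show a short deletion that leaves the RNA in place, and the word labelled is kept below for that reason. By a chi-square of counts, averaged over genes, HM-1 control culture 1 was at 64.9 and 63.9 from controls 2 and 3, while those lay 1.57 from each other. Control tumor 3 stood apart too, at 134 and 81.3 from control tumors 1 and 2, which lay 41.1 from each other, and it carried 185 CPM of summed skin keratinocyte markers where the other 2 control tumors had 6.96 and 6.89. Of the cancer cell markers, the simple epithelium list summed to 1867 to 6313 CPM over all libraries, and Epcam had no count in any HM-1 culture. The leukocyte marker Ptprc was at or under 0.334 CPM in every culture and between 17.9 and 63.5 CPM in the tumors.

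Promoter windows are shown for the members whose sequence holds a match to the kappaB consensus, the family of 10-base sites that NF-kB pairs bind, because these genes are both parts of the pathway and possible targets of it. The RefSeq table of build GRCm38.p6 gave windows of 300 bases, from 250 before to 50 after the annotated start, for 7 of the 10 members (Nfkb2, Rel, Rela, Nfkbia, Nfkbib, Nfkbie and Bcl3), and not for Nfkb1, Relb and Nfkbiz. Both strands were searched, and overlapping matches are drawn as 1 run of capitals. Sequences are given on the strand of the gene. Nfkb2 had 3 windows on the plus strand, at chr19:46304487-46304786, chr19:46305445-46305744 and chr19:46305680-46305979, of which the first and second follow. The second and the third windows overlap and share the match at bases 11 to 20 after the start used for the second.
Nfkb2, first start: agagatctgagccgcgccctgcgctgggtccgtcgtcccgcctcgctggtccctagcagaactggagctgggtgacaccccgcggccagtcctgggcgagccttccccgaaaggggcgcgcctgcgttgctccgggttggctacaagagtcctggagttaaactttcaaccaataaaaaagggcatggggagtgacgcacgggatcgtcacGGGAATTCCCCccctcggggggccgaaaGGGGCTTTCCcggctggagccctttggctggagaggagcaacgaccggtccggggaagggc
Nfkb2, second start: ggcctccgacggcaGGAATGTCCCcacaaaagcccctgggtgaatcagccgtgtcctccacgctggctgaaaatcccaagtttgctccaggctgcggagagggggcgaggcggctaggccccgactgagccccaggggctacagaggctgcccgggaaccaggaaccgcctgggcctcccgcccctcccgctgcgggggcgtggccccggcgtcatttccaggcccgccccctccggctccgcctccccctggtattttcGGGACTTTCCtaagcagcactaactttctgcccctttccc
Nfkbia, the gene of IkB alpha, had 1 window at chr12:55492598-55492897 on the minus strand, with a match 29 to 20 bases before the start. Nfkbie, the gene of IkB epsilon, had 1 at chr17:45555450-45555749 on the plus strand, with a match 106 to 97 bases before the start. Rel had 1 at chr11:23770920-23771219 on the minus strand, with overlapping matches between 92 and 82 bases before the start. Bcl3 had 1 at chr7:19822706-19823005 on the minus strand, with a match 3 to 12 bases after the start.
Nfkbia: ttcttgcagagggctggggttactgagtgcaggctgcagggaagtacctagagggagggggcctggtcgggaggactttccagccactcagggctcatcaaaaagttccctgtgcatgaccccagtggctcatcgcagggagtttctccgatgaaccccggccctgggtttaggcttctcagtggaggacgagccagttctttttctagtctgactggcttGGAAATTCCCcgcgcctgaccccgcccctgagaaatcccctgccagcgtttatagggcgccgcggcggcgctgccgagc
Nfkbie: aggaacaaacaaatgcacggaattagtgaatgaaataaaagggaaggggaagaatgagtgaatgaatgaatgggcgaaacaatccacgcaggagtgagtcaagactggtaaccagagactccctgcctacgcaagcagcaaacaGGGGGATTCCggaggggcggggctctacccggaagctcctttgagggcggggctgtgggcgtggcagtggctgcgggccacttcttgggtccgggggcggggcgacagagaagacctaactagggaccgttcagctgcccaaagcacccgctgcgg
Rel: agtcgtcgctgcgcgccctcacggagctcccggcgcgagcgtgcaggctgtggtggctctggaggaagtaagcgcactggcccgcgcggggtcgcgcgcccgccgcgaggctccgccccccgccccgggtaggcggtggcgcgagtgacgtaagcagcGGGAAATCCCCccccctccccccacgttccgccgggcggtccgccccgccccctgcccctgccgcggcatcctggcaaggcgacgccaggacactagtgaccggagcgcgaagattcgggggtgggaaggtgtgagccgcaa
Bcl3: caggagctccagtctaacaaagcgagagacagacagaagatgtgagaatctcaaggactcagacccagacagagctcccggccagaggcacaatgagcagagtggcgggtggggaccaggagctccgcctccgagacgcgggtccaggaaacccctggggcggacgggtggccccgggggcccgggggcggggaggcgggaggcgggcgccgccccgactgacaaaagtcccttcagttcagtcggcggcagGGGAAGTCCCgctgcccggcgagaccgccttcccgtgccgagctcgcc
The consensus was thus present for 5 of the 7 members with a window. It was not found in the windows of Rela and Nfkbib, which says only that these letters are not there. Over all promoters of the table, 4.51% of 32851 windows held the consensus, and so did 5.14% of 27025 gene symbols in at least 1 window. The members' windows with a match had 58.0 to 75.0% G and C bases, where the median of all windows was 52.7%. The part of base content in the matches was not tested. A match is a description of the sequence and not a bound site, and no binding was measured in this series.

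To set the members beside each other, CPM was divided by the length in kb of the longest principal transcript in the GENCODE M21 annotation. On this scale Nfkb2, Rela, Nfkb1 and Nfkbia were the 4 most abundant members in all 6 groups, and Rel, Nfkbiz, or both, were lowest. The order rests on 1 transcript length per gene. For Nfkb1 this was 4117 bases, while all its annotated exons cover 12061 bases, a length on which its level would be lower. Its place among the first 4 may therefore hold only for the shorter length, and the order on the longer one was not examined. In ID8 cells labelled Cd276KO the order began with Nfkb2 at 52.7 ± 2.21 CPM per kb, Rela at 46.7 ± 1.17 and Nfkb1 at 28.2 ± 0.705 (SD, n = 3 each). In ID8 controls it began with Nfkb2 at 51.7 ± 1.39, Rela at 40.7 ± 1.51 and Nfkb1 at 37.1 ± 0.622 CPM per kb. The libraries of neighbours among these 3 did not overlap in either ID8 group. Nfkbia followed at 21.1 ± 1.49 CPM per kb in ID8 cells labelled Cd276KO, where its libraries overlapped those of Nfkbie at 20.9 ± 0.873.

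In tumors the order was led by Nfkbia, whose protein is the fast and inducible inhibitor. It stood at 38.8 ± 9.46 CPM per kb in tumors labelled Cd276KO, where its libraries overlapped those of Nfkb2 at 36.2 ± 3.90. In control tumors it stood at 56.9 ± 15.1 CPM per kb and did not overlap Nfkb2 at 41.7 ± 3.49. In HM-1 cells labelled Cd276KO the first places went to Rela at 33.7 ± 0.724 and Nfkb2 at 31.6 ± 2.04 CPM per kb, which overlapped. In HM-1 control cells Nfkb2 at 43.6 ± 5.71 CPM per kb lay above Rela at 31.7 ± 0.639 with no overlap. Rel, the gene of c-Rel, a subunit best known from lymphocytes, was at 3.25 ± 0.335 CPM per kb in ID8 cells labelled Cd276KO, the highest of the 6 group means, and at 0.986 ± 0.233 in tumors labelled Cd276KO, the lowest.

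**Figure D1:**
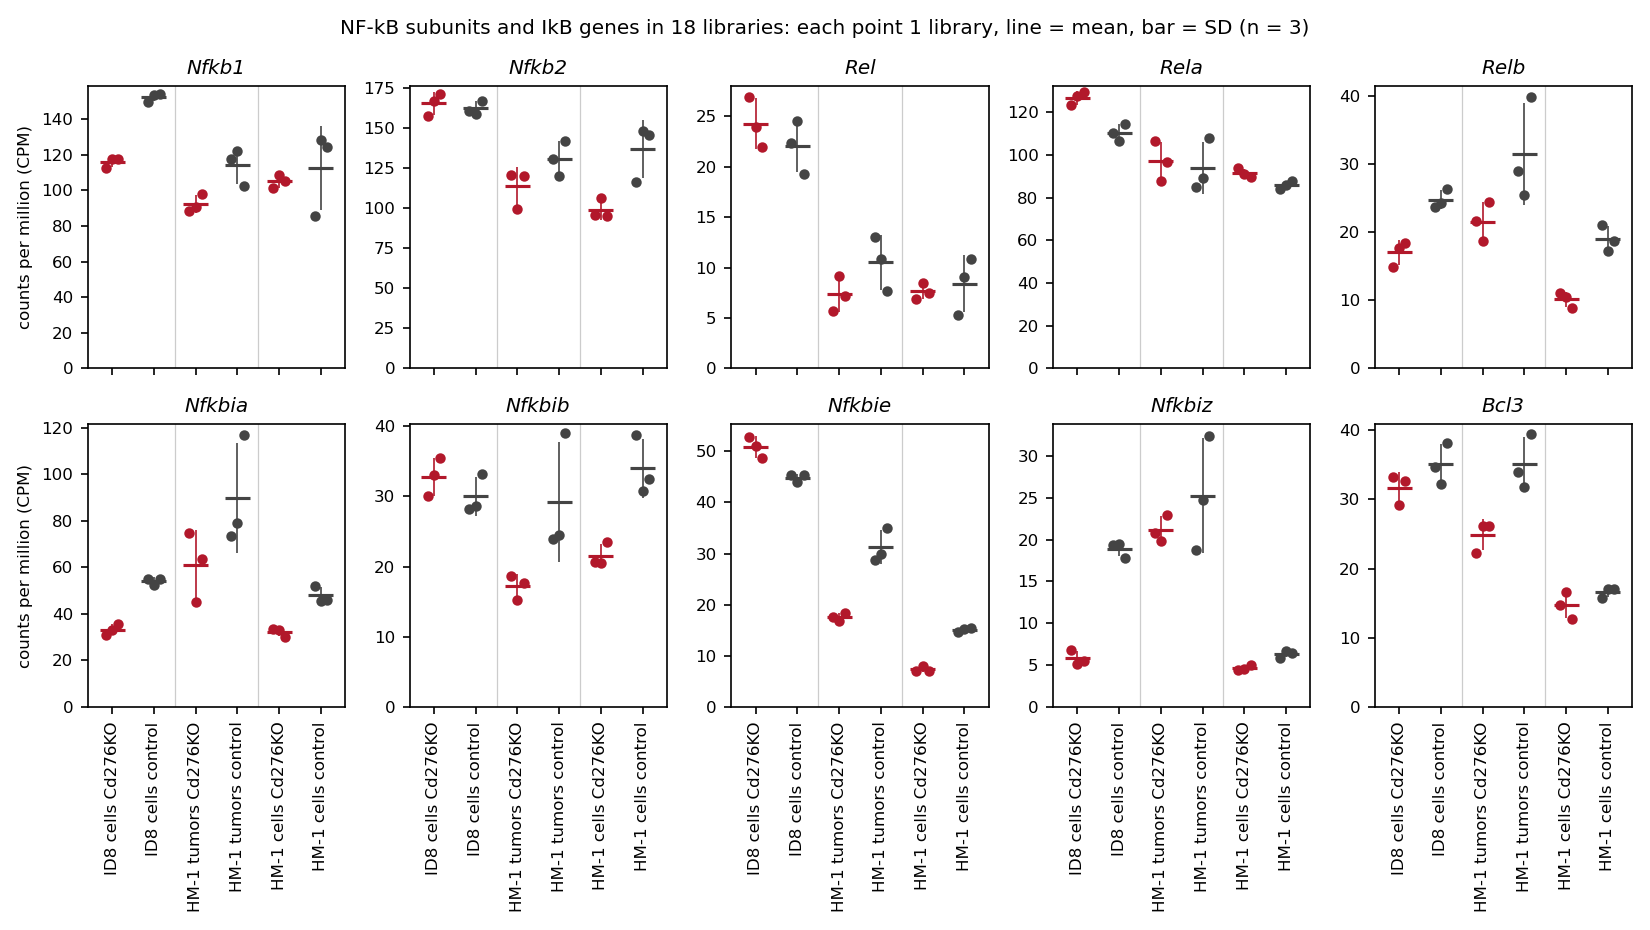
Level of each NF-kB and IkB gene in counts per 1000000 (CPM, vertical axis, from 0) in the 18 libraries, with groups on the horizontal axis; points are libraries, lines are means and bars are SD (n = 3). Nfkbie lies at 48.6 to 52.8 CPM in ID8 cells labelled Cd276KO and at 7.01 to 7.99 CPM in HM-1 cells labelled Cd276KO, and Nfkbiz is at 18.7 CPM or more in all 6 tumors.

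The members differed in how far they ranged over the 6 groups. Rela, whose protein carries a domain that activates transcription, varied least, with 0.56 on the log2 scale between its highest and lowest group mean. Nfkb1 followed with 0.72 and Nfkb2 with 0.74. Nfkbie varied most, with 2.71 between ID8 and HM-1 cells labelled Cd276KO, and Nfkbiz was next with 2.29. Rel had a range of 1.68, Relb 1.57, Nfkbia 1.43, Bcl3 1.23 and Nfkbib 0.96.

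HM-1 cells labelled Cd276KO had lower RNA of all 3 cytoplasmic inhibitors, of the subunits Nfkb2 and Relb and of the nuclear IkB gene Nfkbiz than HM-1 control cells. In all, 6 of the 10 members were called lower and none higher by edgeR's quasi-likelihood test at a Benjamini-Hochberg adjusted p under 0.05. Over all 12457 genes tested, 27.7% were called, 16.1% lower and 11.6% higher. The median log2 fold change of the 10 members was -0.42, and that of all genes was -0.01. In CPM, all 3 libraries labelled Cd276KO lay below all 3 controls for these 6 members and above them for Rela, as they did below for 30.5% and above for 22.5% of all genes tested. No member was higher at an unadjusted p under 0.05 or by DESeq2, which called 5 lower. A kappaB match lay in the windows of Nfkb2, Nfkbia and Nfkbie, which were called lower, and in those of Rel and Bcl3, which were not called, while Nfkbib, called lower, had none.

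Nfkbie had 7.07, 7.99 and 7.01 CPM in HM-1 cells labelled Cd276KO, against 14.6, 15.2 and 15.4 CPM in HM-1 controls. All 3 libraries labelled Cd276KO were at about the same low level and apart from the controls, and the log2 fold change was -0.99 (SE 0.094, edgeR adjusted p = 0.000523). Nfkbia had 33.3, 33.2 and 30.1 CPM in HM-1 cells labelled Cd276KO, against 51.9, 45.7 and 46.2 CPM in HM-1 controls, with a log2 fold change of -0.53 (SE 0.093, edgeR adjusted p = 0.00696). Nfkbib, the gene of IkB beta, the inhibitor that is resynthesised slowly, had 20.6, 20.5 and 23.5 CPM in HM-1 cells labelled Cd276KO, against 38.7, 30.8 and 32.5 CPM in HM-1 controls. Its groups did not overlap either, and its log2 fold change was -0.62 (SE 0.12, edgeR adjusted p = 0.0113).

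Among the subunits, Relb had 11, 10.5 and 8.92 CPM in HM-1 cells labelled Cd276KO, against 21.1, 17.2 and 18.8 CPM in HM-1 controls. RelB is the activating partner in the slower branch, and its log2 fold change was -0.86 (SE 0.13, edgeR adjusted p = 0.00346), with all 3 libraries labelled Cd276KO below all controls. Nfkb2, which encodes the precursor of its partner, had 95.7, 107 and 95.2 CPM in HM-1 cells labelled Cd276KO, against 116, 149 and 146 CPM in HM-1 controls, and a log2 fold change of -0.42 (SE 0.11, edgeR adjusted p = 0.0287). Exons of Nfkb2 overlap those of Psd on the opposite strand by 299 bases, and Psd had between 12.4 and 31.6 CPM over all libraries, so that without a stated strand setting some reads of the overlap could have been lost to both or counted for the other. Nfkb2 also shares 531 exon bases with the noncoding AC114539.1 on the opposite strand. Nfkbib shares 42 exon bases with Sirt2, at 34.8 to 60.4 CPM, and 314 with Ccer2, with 0 counts in every library, and Bcl3 shares 161 with Gm16175, at no more than 0.634 CPM, all on the opposite strand.

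Rela had 93.7, 91.3 and 89.8 CPM in HM-1 cells labelled Cd276KO, against 84.3, 86.2 and 87.8 CPM in HM-1 controls. These groups did not overlap, but the difference of 0.13 on the log2 scale (SE 0.067) was not called (edgeR adjusted p = 0.189). Nfkb1, whose product forms pairs with RelA, had 101, 108 and 105 CPM in HM-1 cells labelled Cd276KO, against 85.5, 128 and 124 CPM in HM-1 controls. Control 1 was the low one, the groups overlapped, and the log2 fold change was -0.06 (SE 0.15). Rel had 6.92, 8.50 and 7.53 CPM in HM-1 cells labelled Cd276KO, against 5.33, 9.11 and 10.8 CPM in HM-1 controls, again with control 1 lowest and a log2 fold change of -0.11 (SE 0.24).

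Of the nuclear IkB genes, Nfkbiz had 4.39, 4.56 and 5.05 CPM in HM-1 cells labelled Cd276KO, against 5.90, 6.71 and 6.46 CPM in HM-1 controls. IkB zeta, its product, is needed for a set of late inflammatory genes, and the log2 fold change was -0.41 (SE 0.12, edgeR adjusted p = 0.0393). Bcl3, whose product binds pairs of the Nfkb1 and Nfkb2 products, had 14.8, 16.6 and 12.8 CPM in HM-1 cells labelled Cd276KO, against 15.8, 17.1 and 17.1 CPM in HM-1 controls, and was not called (log2 fold change -0.14, edgeR adjusted p = 0.390).

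The calls of Relb, Nfkbia and Nfkbie held when any 1 of the 6 libraries was left out. Without HM-1 control 1, 9 of the 10 members were called, with Nfkb1 (-0.21) and Rel (-0.33) also lower and Rela (0.13) higher. In that fit 7491 of 12685 genes were called, where 3452 of 12457 were with all 6 libraries, so the larger count is not particular to the members. With any other library left out, 1725 to 2658 genes and 3 or 4 members were called. The calls of Nfkb2 and Nfkbiz were lost each time, as was that of Nfkbib without library 1 or 2 labelled Cd276KO. In 1 edgeR fit over all 18 libraries 4 members were called, since Nfkbia (adjusted p = 0.0577) and Nfkbiz (adjusted p = 0.126) were not. The summed leukocyte markers were 72.3 to 87.1 CPM in HM-1 cells labelled Cd276KO and 25.2 to 28.5 CPM in HM-1 controls. Nearly all of this was Cd53, with 72.0 to 86.6 CPM in HM-1 cells labelled Cd276KO and 24.8 to 28.0 CPM in HM-1 controls, while Ptprc, Coro1a and Laptm5 stayed at or under 0.454 CPM in these cultures. The summed macrophage markers were 55.1 to 60.5 CPM in HM-1 cells labelled Cd276KO and 21.2 to 25.9 CPM in HM-1 controls, with Csf1r at or under 0.155 CPM and C1qa at 0 in both groups. Of that sum Mrc1 made up 50.9 to 56.6 CPM in HM-1 cells labelled Cd276KO and 15 to 19.8 CPM in HM-1 controls.

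**Figure D2:**
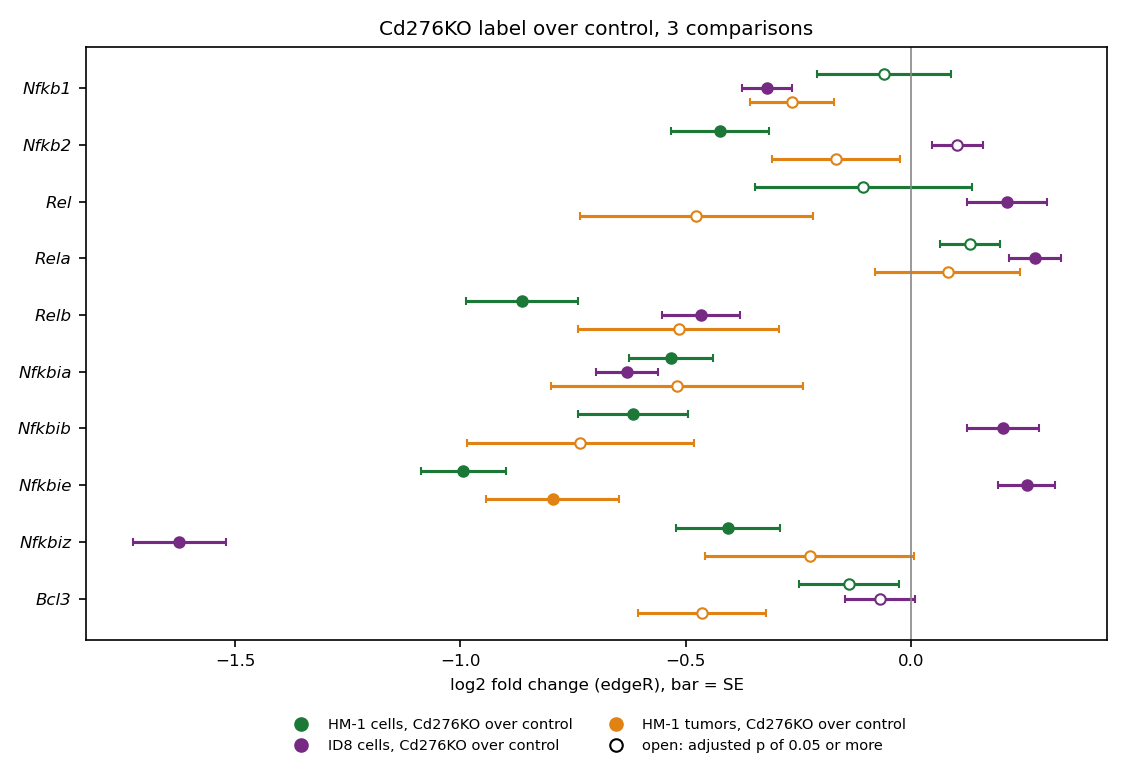
Log2 fold change of each member for samples labelled Cd276KO over controls (horizontal axis) in HM-1 cells, ID8 cells and HM-1 tumors; bars are SE, and open points have an edgeR adjusted p of 0.05 or more. Nfkbie lies at -0.99 in HM-1 cells and -0.79 in HM-1 tumors but at 0.26 in ID8 cells, and Nfkbiz lies at -1.62 in ID8 cells.

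In ID8 cells the members moved in both directions. Nfkbiz fell most, Nfkbia, Relb and Nfkb1 fell, and Rel, Rela, Nfkbib and Nfkbie rose by small amounts in ID8 cells labelled Cd276KO relative to ID8 controls. That gave 4 members called lower and 4 called higher of 10. Many genes were called in this comparison, 60.7% of the 12932 tested, with 31.3% lower and 29.4% higher, so a count of 8 of 10 lies not far above the background. The median log2 fold change was 0.02 over the members and -0.01 over all genes. All 3 libraries labelled Cd276KO lay below all 3 controls in CPM for 4 members and above them for 2, where 39.2% of all genes tested lay below and 25.1% above.

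Nfkbiz had 6.76, 5.16 and 5.55 CPM in ID8 cells labelled Cd276KO, against 19.4, 19.5 and 17.9 CPM in ID8 controls. All 3 libraries labelled Cd276KO were well below every control, and the log2 fold change of -1.62 (SE 0.10, edgeR adjusted p = 4.02e-12) was the largest of the 10. Bcl3, the other nuclear member, had 33.3, 29.2 and 32.7 CPM in ID8 cells labelled Cd276KO, against 34.7, 32.3 and 38.2 CPM in ID8 controls. The groups of Bcl3 overlapped, and it was not called (log2 fold change -0.07, SE 0.077, edgeR adjusted p = 0.451).

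The cytoplasmic inhibitors split. Nfkbia had 31.0, 33.0 and 35.7 CPM in ID8 cells labelled Cd276KO, against 55.1, 52.4 and 55.2 CPM in ID8 controls, a log2 fold change of -0.63 (SE 0.069, edgeR adjusted p = 4.18e-08). Nfkbie had 52.8, 51.0 and 48.6 CPM in ID8 cells labelled Cd276KO, against 45.3, 44.0 and 45.3 CPM in ID8 controls, with no overlap and a log2 fold change of 0.26 (SE 0.063, edgeR adjusted p = 0.00128). Nfkbib had 30.0, 33.0 and 35.4 CPM in ID8 cells labelled Cd276KO, against 28.3, 28.6 and 33.2 CPM in ID8 controls. The groups of Nfkbib overlapped in CPM, and its log2 fold change of 0.20 (SE 0.081, edgeR adjusted p = 0.0332) kept its call in 2 of the 6 fits without 1 library. By these levels, Nfkbia and Nfkbie were at 36.4 ± 1.37% and 36.1 ± 2.71% of the summed CPM per kb of the 3 inhibitors in ID8 cells labelled Cd276KO, and at 51.0 ± 0.863% and 27.4 ± 0.589% in ID8 controls (SD, n = 3).

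Of the subunits, Nfkb1 had 113, 118 and 118 CPM in ID8 cells labelled Cd276KO, against 150, 154 and 154 CPM in ID8 controls, a log2 fold change of -0.32 (SE 0.055, edgeR adjusted p = 2.58e-05). Relb had 14.9, 17.7 and 18.5 CPM in ID8 cells labelled Cd276KO, against 23.7, 24.3 and 26.3 CPM in ID8 controls, a log2 fold change of -0.47 (SE 0.087, edgeR adjusted p = 6.97e-05). Rela had 123, 128 and 129 CPM in ID8 cells labelled Cd276KO, against 110, 106 and 115 CPM in ID8 controls, a log2 fold change of 0.28 (SE 0.057, edgeR adjusted p = 0.000223). For these 3 subunits no library of one group reached the other group. Rel had 26.9, 24.0 and 21.9 CPM in ID8 cells labelled Cd276KO, against 22.4, 24.5 and 19.3 CPM in ID8 controls, with overlap and a log2 fold change of 0.21 (SE 0.089, edgeR adjusted p = 0.0435). Nfkb2 had 158, 167 and 172 CPM in ID8 cells labelled Cd276KO, against 161, 159 and 167 CPM in ID8 controls, and was not called (log2 fold change 0.10, edgeR adjusted p = 0.121). Under upper-quartile scaling Rel (edgeR adjusted p = 0.0604) and Nfkbib (edgeR adjusted p = 0.0520) were no longer called, which left 2 members higher and 4 lower. In 1 edgeR fit over all 18 libraries 0 members were called higher and 3 lower: Rela (adjusted p = 0.0614), Nfkbie (adjusted p = 0.0529), Rel, Nfkbib and Relb (adjusted p = 0.0606) all lost their calls. Rel was also lost without ID8 control 1 or 3 or without library 1 or 2 labelled Cd276KO, and Nfkbib without ID8 control 1 or 2 or without library 2 or 3 labelled Cd276KO. Without ID8 control 3, Nfkb2 was called (0.14, edgeR adjusted p = 0.0403).

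The Cd276KO label went with different changes in the 2 cell lines for 4 of the 10 members, by an interaction term in edgeR over the 12 culture libraries. Of the 14208 genes tested, 40.4% were called, 19.8% with a higher and 20.7% with a lower effect in ID8 than in HM-1 cells, so 4 of 10 is at the background. The effect in ID8 minus that in HM-1 cells was 1.24 for Nfkbie (SE 0.11, edgeR adjusted p = 1.57e-06), which rose in ID8 and fell in HM-1 cells labelled Cd276KO. It was 0.81 for Nfkbib (SE 0.16, edgeR adjusted p = 0.00128) and 0.52 for Nfkb2 (SE 0.12, edgeR adjusted p = 0.00520). For Nfkbiz it was -1.23 (SE 0.16, edgeR adjusted p = 6.28e-05), since the fall was larger in ID8 cells. Each of these 4 calls held in all 12 fits that left out 1 library, and without HM-1 control 1 Rel was added (0.54, edgeR adjusted p = 0.00405). Relb had a difference of 0.38 (SE 0.16, edgeR adjusted p = 0.0739), called without HM-1 control 2 or without library 1 of ID8 labelled Cd276KO. Nfkbia, called lower in both lines, had a difference of -0.11 (SE 0.12, edgeR adjusted p = 0.481), which does not show that the effects were equal.

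In HM-1 tumors the same label went with a lower level of Nfkbie, the 1 member called. Of the 15345 genes tested, 5.38% were called, 3.18% lower and 2.2% higher. The folds of 9 of the 10 members were below 0, with a median of -0.47 over the members and -0.03 over all genes. Without control tumor 3 the median of the members was -0.28 and that of all genes 0.0051. For 5 members all 3 tumors labelled Cd276KO lay below all 3 control tumors in CPM, as they did for 20.6% of all genes tested. For none of the 10 did they all lie above, as they did for 14.2% of all genes. Since this is bulk tissue, fewer cells of a type and less RNA per cell cannot be told apart.

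Nfkbie had 17.6, 16.8 and 18.4 CPM in tumors labelled Cd276KO, against 28.7, 30.0 and 35.1 CPM in control tumors. The groups lay apart by more than their own spread, and the log2 fold change was -0.79 (SE 0.15, edgeR adjusted p = 0.0371). The fold stayed between -0.87 and -0.66 whichever library was left out, but the call was lost in 5 of these 6 fits and held without control tumor 3 (-0.66, edgeR adjusted p = 0.0200). Nfkbib had 18.6, 15.2 and 17.7 CPM in tumors labelled Cd276KO, against 24.0, 24.5 and 39.0 CPM in control tumors, where the third stood alone. Its log2 fold change of -0.73 (SE 0.25, edgeR adjusted p = 0.136) was -0.42 without control tumor 3. Nfkbia had 74.7, 45.2 and 63.6 CPM in tumors labelled Cd276KO, against 73.5, 78.9 and 117 CPM in control tumors, with overlap and a log2 fold change of -0.52 (SE 0.28, edgeR adjusted p = 0.299). It was -0.23 without control tumor 3.

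Of the nuclear genes, Bcl3 had 22.3, 26.2 and 26.2 CPM in tumors labelled Cd276KO, against 34.0, 31.8 and 39.5 CPM in control tumors. Its groups did not overlap, and its log2 fold change of -0.46 (SE 0.14) missed the threshold (edgeR adjusted p = 0.105). Nfkbiz had 20.8, 19.8 and 23.0 CPM in tumors labelled Cd276KO, against 18.7, 24.7 and 32.4 CPM in control tumors, which overlapped. Its log2 fold change was -0.23 (SE 0.23) and turned to 0.04 without control tumor 3.

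Among the subunits, Relb had 21.6, 18.7 and 24.4 CPM in tumors labelled Cd276KO, against 29.1, 25.5 and 39.9 CPM in control tumors, a log2 fold change of -0.52 (SE 0.22, edgeR adjusted p = 0.212) that was -0.26 without control tumor 3. Nfkb1 had 88.5, 90.8 and 97.9 CPM in tumors labelled Cd276KO, against 118, 122 and 103 CPM in control tumors. Neither Relb nor Nfkb1 overlapped between the groups, and Nfkb1 had a log2 fold change of -0.26 (SE 0.093, edgeR adjusted p = 0.142). Nfkb2 had 121, 99.5 and 120 CPM in tumors labelled Cd276KO, against 131, 120 and 142 CPM in control tumors. Rel had 5.73, 9.20 and 7.15 CPM in tumors labelled Cd276KO, against 13.1, 10.9 and 7.66 CPM in control tumors. Rela had 106, 87.7 and 96.9 CPM in tumors labelled Cd276KO, against 84.9, 89.4 and 108 CPM in control tumors. The groups of these last 3 genes overlapped, and none was called.

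The makeup of the tumors also differed, and its part in these values was not tested. Control tumor 3, the highest of its group for Nfkb2, Rela, Relb, the 3 inhibitors and both nuclear IkB genes, had 101 CPM of summed neutrophil markers, against 28.0 and 29.0 CPM in the other control tumors, and 273 CPM of fibroblast markers, against 5886 and 1794 CPM. The neutrophil list was not uniform there. S100a8, S100a9 and Csf3r were highest in control tumor 3, at 22.9, 47.9 and 26.4 CPM. Retnlg was lowest there, at 2.50 CPM, against 4.86 and 5.16 CPM in control tumors 1 and 2. Ly6g had 1.04 CPM there, against 1.38 and 0.938 CPM. Summed neutrophil markers were 8.43 to 12.5 CPM in tumors labelled Cd276KO and 28.0 to 101 CPM in control tumors. Summed macrophage markers were 287 to 556 CPM in tumors labelled Cd276KO and 494 to 887 CPM in control tumors. Summed striated muscle markers were 78.7 to 645 CPM in tumors labelled Cd276KO and 0.703 to 111 CPM in control tumors.

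No member had a called difference between the effect of the label in HM-1 tumors and that in HM-1 cells. By the edgeR interaction term over 12 libraries, 0 of 10 members passed, 0 had an unadjusted p under 0.05 and DESeq2 called 0, where 2.84% of 15623 genes were called, 1.72% higher and 1.12% lower. The differences ran from -0.39 for Rel (SE 0.40) to 0.35 for Relb (SE 0.24). For Nfkbie the difference was 0.20 (SE 0.15, edgeR adjusted p = 0.626), and for Nfkbia it was 0.02 (SE 0.28, edgeR adjusted p = 1.00). With standard errors of 0.15 to 0.40, a difference of moderate size could have been missed.

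Tumors had more RNA of both nuclear IkB genes and of Nfkbia and Nfkbie than HM-1 cells in culture. In control tumors over control cells 4 members were called higher and 0 lower, where 41.8% of 14609 genes were called, 25.3% higher and 16.6% lower. In tumors over cells labelled Cd276KO 5 were called higher, with Relb added, and 2 lower, where 75.7% of 14330 genes were called, 41.2% higher and 34.5% lower. No member was lower at an unadjusted p under 0.05 or by DESeq2 in the control pair. The background of the pair labelled Cd276KO is as high as the members' own count. In CPM, all 3 tumors lay above all 3 cultures for 5 members in each pair, where 37.0% of all genes did in the control pair and 48.4% in the pair labelled Cd276KO. They lay below for 0 and 2 members, where 18.9% and 30.3% of all genes did. Upper-quartile scaling moved the median of all genes to 0.19 in the control pair (0.05 with the scaling used here) and to 0.25 in the pair labelled Cd276KO (0.08), and in the control pair it gave 4165 genes higher and 1701 lower in place of 3689 and 2418. The members' folds below are to be read against these shifts.

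Nfkbiz changed most in both pairs. It averaged 21.2 ± 1.63 CPM in tumors and 4.67 ± 0.344 CPM in cells labelled Cd276KO, a log2 fold change of 2.05 (SE 0.11, edgeR adjusted p = 8.43e-07). It averaged 25.3 ± 6.84 CPM in control tumors and 6.36 ± 0.414 CPM in control cells, a log2 fold change of 1.85 (SE 0.24, edgeR adjusted p = 0.00153), and 1.60 without control tumor 3. Bcl3 averaged 24.9 ± 2.24 CPM in tumors and 14.7 ± 1.91 CPM in cells labelled Cd276KO (log2 fold change 0.62, SE 0.11, edgeR adjusted p = 0.000620). In controls it averaged 35.1 ± 3.98 CPM in tumors and 16.7 ± 0.766 CPM in cells (log2 fold change 0.94, SE 0.15, edgeR adjusted p = 0.00306). No tumor of either pair overlapped its cells for these 2 genes.

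Nfkbie averaged 17.6 ± 0.785 CPM in tumors and 7.36 ± 0.550 CPM in cells labelled Cd276KO, a log2 fold change of 1.13 (SE 0.10, edgeR adjusted p = 1.51e-05). It averaged 31.3 ± 3.37 CPM in control tumors and 15.1 ± 0.387 CPM in control cells, a log2 fold change of 0.91 (SE 0.15, edgeR adjusted p = 0.00348). Nfkbia averaged 61.2 ± 14.9 CPM in tumors and 32.2 ± 1.83 CPM in cells labelled Cd276KO, a log2 fold change of 0.79 (SE 0.19, edgeR adjusted p = 0.00517). In controls Nfkbia averaged 89.8 ± 23.8 CPM in tumors and 47.9 ± 3.44 CPM in cells, a log2 fold change of 0.77 (SE 0.22, edgeR adjusted p = 0.0274), which was 0.49 without control tumor 3 and lost its call without control culture 2 or 3. The third inhibitor went the other way. Nfkbib averaged 17.2 ± 1.78 CPM in tumors and 21.5 ± 1.68 CPM in cells labelled Cd276KO (log2 fold change -0.46, SE 0.11, edgeR adjusted p = 0.00517), and in controls its log2 fold change of -0.36 was not called (edgeR adjusted p = 0.276) but was -0.67 and called without control tumor 3 (edgeR adjusted p = 0.0215).

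Relb averaged 21.6 ± 2.87 CPM in tumors and 10.1 ± 1.10 CPM in cells labelled Cd276KO (log2 fold change 0.95, SE 0.13, edgeR adjusted p = 0.000149). In controls it averaged 31.5 ± 7.53 CPM in tumors and 19.0 ± 1.96 CPM in cells, a log2 fold change of 0.59 (SE 0.22) that missed the threshold here (edgeR adjusted p = 0.0703) and passed it under upper-quartile scaling (edgeR adjusted p = 0.0392) and in DESeq2 (adjusted p = 0.0384). Nfkb1 averaged 92.4 ± 4.93 CPM in tumors and 105 ± 3.52 CPM in cells labelled Cd276KO (log2 fold change -0.32, SE 0.058, edgeR adjusted p = 0.000911). Nfkb1 was not called in the control pair, and neither were Nfkb2, Rel and Rela in either pair. Leukocyte markers were higher in tumors too: their sum was 356 to 416 CPM in tumors and 72.3 to 87.1 CPM in cells labelled Cd276KO, and 235 to 372 CPM in control tumors and 25.2 to 28.5 CPM in control cells. Much of the sum was Cd53, which the HM-1 cultures also express, with 269 to 291 CPM in tumors labelled Cd276KO and 83.5 to 124 CPM in control tumors. The other 3 markers had lower means in tumors labelled Cd276KO than in control tumors, with Ptprc at 29.6 ± 10.8 CPM in tumors labelled Cd276KO and 45.5 ± 16.2 CPM in control tumors, Coro1a at 24.7 ± 3.68 CPM in tumors labelled Cd276KO and 48.0 ± 17.1 CPM in control tumors, and Laptm5 at 61.7 ± 17.6 CPM in tumors labelled Cd276KO and 99.5 ± 27.3 CPM in control tumors (SD, n = 3). How much of each member's tumor RNA came from host cells was not tested.

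**Figure D3:**
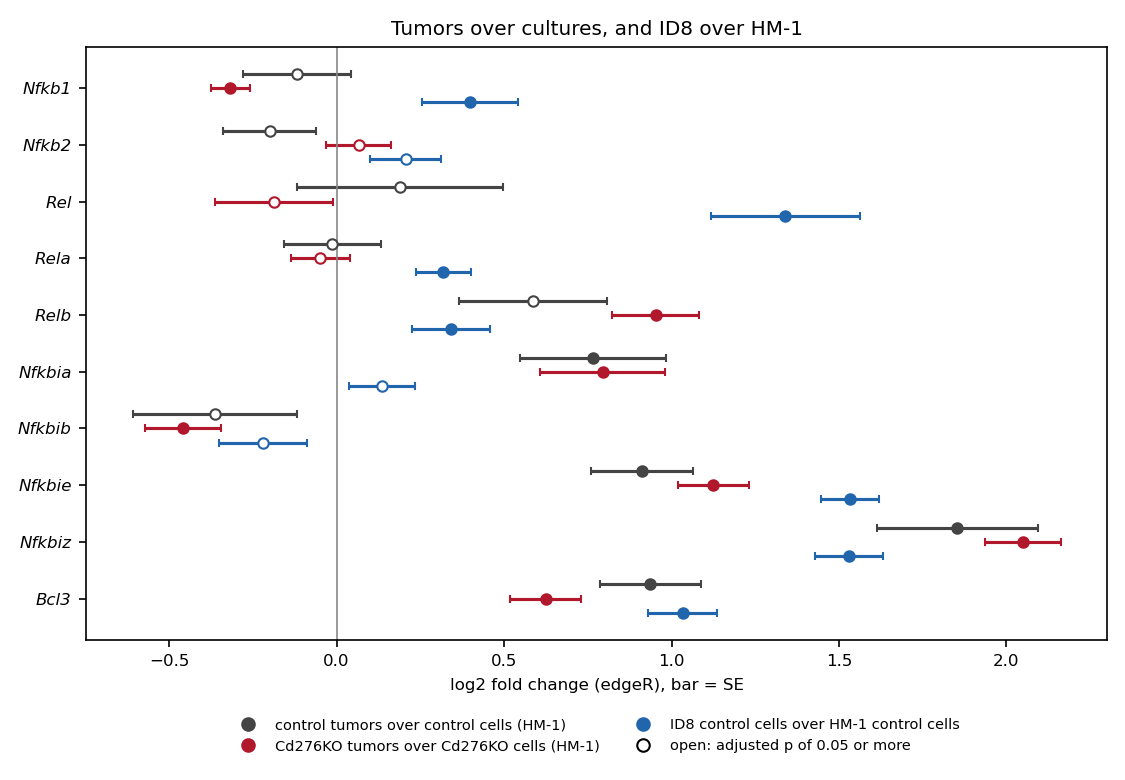
Log2 fold change of each member (horizontal axis) for HM-1 tumors over HM-1 cells, within controls and within samples labelled Cd276KO, and for ID8 over HM-1 control cells; bars are SE and open points have an edgeR adjusted p of 0.05 or more. Nfkbiz is at 2.05 and 1.85 in tumors over cells and at 1.53 in ID8 over HM-1, and Nfkbib is below 0 in all 3.

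ID8 control cells had more RNA than HM-1 control cells for most members. There 7 of 10 were called higher and 0 lower, where 58.3% of 13732 genes were called, 28.8% higher and 29.6% lower. No member was lower at an unadjusted p under 0.05 or by DESeq2. For 9 of the 10, all but Nfkbib, all 3 ID8 controls lay above all 3 HM-1 controls in CPM, as they did for 35.9% of all genes tested, and for none did they all lie below, as 31.4% of all genes did. The HM-1 control cells are shared with comparisons above, so these folds are not independent of them.

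Nfkbie averaged 44.9 ± 0.747 CPM in ID8 and 15.1 ± 0.387 CPM in HM-1 controls, a log2 fold change of 1.53 (SE 0.086, edgeR adjusted p = 1.83e-06). Nfkbiz averaged 18.9 ± 0.928 CPM in ID8 and 6.36 ± 0.414 CPM in HM-1 controls, with the same log2 fold change of 1.53 (SE 0.10, edgeR adjusted p = 4.65e-06). Bcl3 averaged 35.1 ± 2.95 CPM in ID8 and 16.7 ± 0.766 CPM in HM-1 controls (log2 fold change 1.03, SE 0.10, edgeR adjusted p = 6.14e-05). These 3 IkB genes were thus the ones that differed most between the lines beside Rel, which averaged 22.1 ± 2.64 CPM in ID8 and 8.42 ± 2.81 CPM in HM-1 controls (log2 fold change 1.34, SE 0.22, edgeR adjusted p = 0.00115).

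The other subunits differed less, with log2 fold changes of 0.40 for Nfkb1, 0.34 for Relb and 0.32 for Rela, all called. Nfkb1 was at 0.24 without HM-1 control 1, and its call was lost without any 1 of the 3 ID8 controls. The call of Relb held in 1 of the 6 fits without 1 library, the one without HM-1 control 1, where the fold was 0.43, and was lost under upper-quartile scaling (edgeR adjusted p = 0.0669). Nfkb2 at 0.21, Nfkbia at 0.14 and Nfkbib at -0.22 were not called, and Nfkbia was called without HM-1 control 1 (0.21, edgeR adjusted p = 0.00731).

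The RNA of the 3 classical inhibitors was set against that of the 5 subunits. The ratio was the summed CPM per kb of Nfkbia, Nfkbib and Nfkbie over that of Nfkb1, Nfkb2, Rel, Rela and Relb. Nfkb1 and Nfkb2 were counted as subunits only, and the ratio does not measure inhibition. The ratio was 0.419, 0.413 and 0.421 in ID8 cells labelled Cd276KO, against 0.474, 0.461 and 0.473 in ID8 controls. It was 0.580, 0.448 and 0.514 in tumors labelled Cd276KO, against 0.601, 0.652 and 0.835 in control tumors. It was 0.356, 0.344 and 0.355 in HM-1 cells labelled Cd276KO, against 0.582, 0.421 and 0.432 in HM-1 controls. In all 3 settings every library labelled Cd276KO lay below every control of its setting, and both libraries that stand apart, HM-1 control 1 and control tumor 3, were the highest of their groups. The inhibitors did not all move alike. In ID8 cells Nfkbia was lower (log2 fold change -0.63), while Nfkbib (0.20) and Nfkbie (0.26) were higher. The ratio rests on 1 transcript length per gene and is larger when all annotated exons are used, 0.554 in ID8 cells labelled Cd276KO and 0.667 in ID8 controls, 0.728 in tumors labelled Cd276KO and 1.01 in control tumors, and 0.507 in HM-1 cells labelled Cd276KO and 0.695 in HM-1 controls. RNA ratios say nothing of protein, which for these inhibitors is set largely by degradation.

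**Figure D4:**
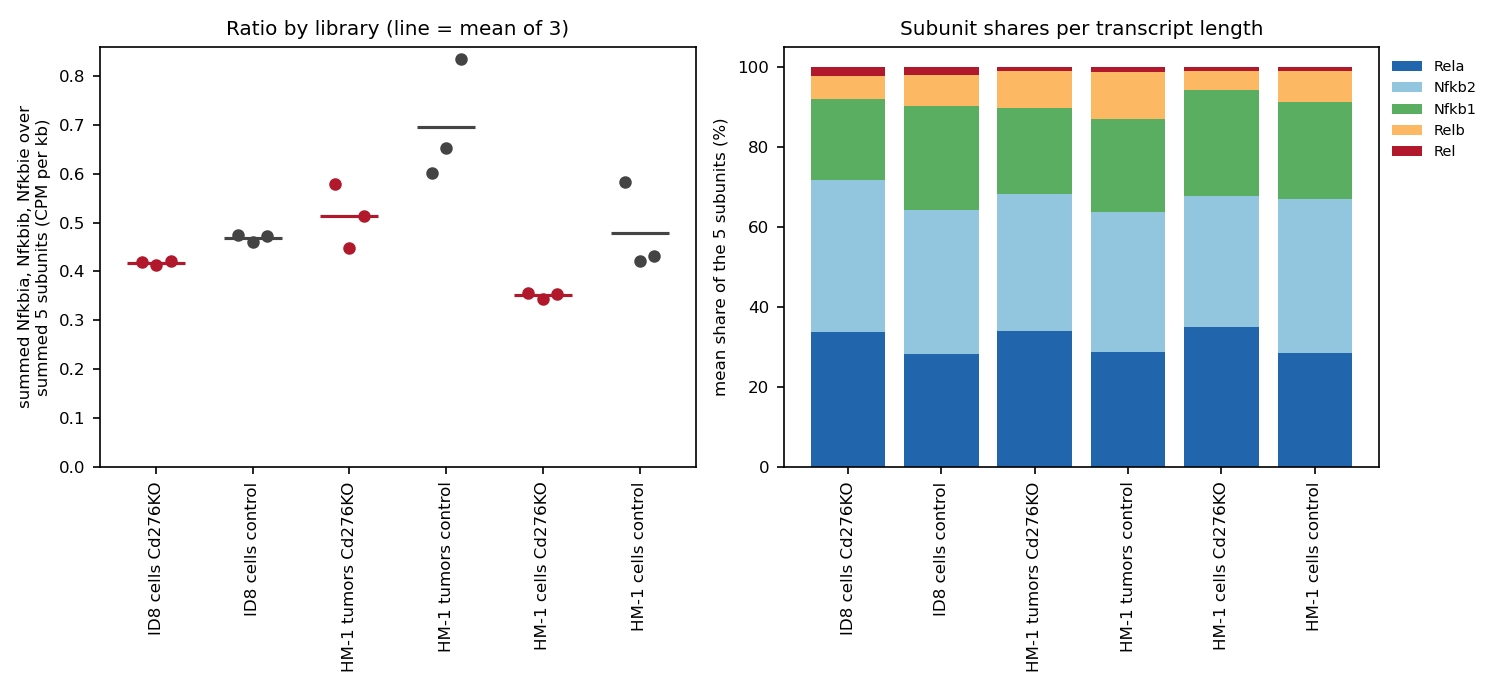
Left, the ratio of summed Nfkbia, Nfkbib and Nfkbie to the summed 5 subunits (CPM per kb, axis from 0) in each library, with the mean of 3 as a line. Right, the mean percent of each subunit in the summed subunits per group, where Rela is at 33.7% in ID8 cells labelled Cd276KO and 28.3% in ID8 controls.

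Within the subunits, Rela made up 33.7 ± 0.276% of the summed CPM per kb in ID8 cells labelled Cd276KO and 28.3 ± 0.515% in ID8 controls. The share was 34.0 ± 1.62% in tumors labelled Cd276KO and 28.9 ± 1.97% in control tumors. In HM-1 cells it was 35.0 ± 1.22% in those labelled Cd276KO and 28.4 ± 2.57% in controls (SD, n = 3 each). Relb held 5.56 ± 0.440% in ID8 cells labelled Cd276KO and 7.81 ± 0.255% in ID8 controls, 9.27 ± 0.695% in tumors labelled Cd276KO and 11.8 ± 2.0% in control tumors, and 4.76 ± 0.465% in HM-1 cells labelled Cd276KO and 7.77 ± 1.65% in HM-1 controls. A share also rises when other subunits fall. Rela itself was called higher in ID8 cells (log2 fold change 0.28). It was not called in tumors (0.08, edgeR adjusted p = 0.790) or HM-1 cells (0.13, edgeR adjusted p = 0.189). The size of these shares also depends on the 1 transcript length used per gene.

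Further genes of the pathway were taken from lists of ligands, receptors, adaptors and kinases, and negative regulators, and their counts are set beside the shares of all genes called. In HM-1 cells labelled Cd276KO over controls, where 16.1% of all genes were called lower and 11.6% higher, 6 of 11 tested negative regulators were called lower and 1 higher, with a median log2 fold change of -0.49 against -0.01 for all genes. Among them Tnfaip3, the gene of a ubiquitin-editing inhibitor and a known NF-kB target, averaged 4.92 ± 0.290 CPM in HM-1 cells labelled Cd276KO and 8.35 ± 1.83 CPM in HM-1 controls (log2 fold change -0.73, SE 0.17, edgeR adjusted p = 0.0216). Its call held in 1 of the 6 fits without 1 library, the one without HM-1 control 1, and adjusted p reached 0.0914 in the others. Otulin, which removes linear ubiquitin chains, averaged 28.6 ± 1.10 CPM in HM-1 cells labelled Cd276KO and 54.3 ± 8.38 CPM in HM-1 controls (log2 fold change -0.88, SE 0.13, edgeR adjusted p = 0.00356). Of 23 adaptors and kinases, 8 were lower and 2 higher. Map3k14, the kinase of the slower branch, averaged 11.7 ± 0.802 CPM in HM-1 cells labelled Cd276KO and 25.5 ± 5.31 CPM in HM-1 controls (log2 fold change -1.08, SE 0.16, edgeR adjusted p = 0.00373). Myd88, the adaptor of Toll-like and interleukin-1 receptors, averaged 29.0 ± 1.15 CPM in HM-1 cells labelled Cd276KO and 51.3 ± 1.84 CPM in HM-1 controls (log2 fold change -0.78, SE 0.074, edgeR adjusted p = 0.000511). Of 10 receptors tested, 3 were higher and 3 lower, with Il1rap, the shared interleukin-1 receptor chain, at -1.28 (SE 0.21) and Tlr3, a sensor of double-stranded RNA, at 0.84 (SE 0.23) on the log2 scale. The call of Tlr3 held in 2 of the 6 fits without 1 library, those without HM-1 control 1 or 2. Of the 10 ligands only 3 passed the filter, and 1 was lower.

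In ID8 cells labelled Cd276KO over controls, 7 of 10 tested receptors were lower and 2 higher, 10 of 23 adaptors and kinases were lower and 3 higher, and 5 of 11 negative regulators were lower and 3 higher. Over all genes 31.3% were called lower and 29.4% higher, 60.7% in all, so the adaptors and kinases, with 13 of 23 called, were at about the background. Irak1, a kinase below Myd88, averaged 56.3 ± 1.45 CPM in ID8 cells labelled Cd276KO and 126 ± 4.39 CPM in ID8 controls (log2 fold change -1.09, SE 0.057, edgeR adjusted p = 1.36e-13). Ikbkg, the regulatory subunit of the kinase complex, averaged 22.8 ± 1.44 CPM in ID8 cells labelled Cd276KO and 48.2 ± 1.20 CPM in ID8 controls (log2 fold change -1.0, SE 0.070, edgeR adjusted p = 2.18e-11). In HM-1 cells both Ikbkg and Irak1 were called higher, and of the 6 fits without 1 library the call of Irak1 held in the 1 without HM-1 control 1. The difference of the effects was -1.78 for Ikbkg (SE 0.10, edgeR adjusted p = 5.88e-08) and -1.55 for Irak1 (SE 0.15, edgeR adjusted p = 4.07e-06). Tnfrsf12a, the receptor of Tnfsf12, averaged 310 ± 8.40 CPM in ID8 cells labelled Cd276KO and 208 ± 13.2 CPM in ID8 controls (log2 fold change 0.65, SE 0.059, edgeR adjusted p = 2.05e-09). The 1 ligand that passed the filter in ID8 cells was not called.

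In tumors labelled Cd276KO over control tumors, where 3.18% of all genes were called lower and 2.2% higher, 2 of 12 negative regulators were lower, Tnfaip3 at -0.99 (SE 0.19, edgeR adjusted p = 0.0389) and Otulin at -0.89 (SE 0.19, edgeR adjusted p = 0.0489) on the log2 scale. Of 23 adaptors and kinases 3 were lower, with Irak4 at -0.78 (SE 0.14) and Myd88 at -0.70 (SE 0.14). Of 11 receptors 1 was lower, Il1rap, with 10.6 ± 1.81 CPM in tumors labelled Cd276KO and 39.1 ± 12.7 CPM in control tumors. Of 9 ligands 2 were lower and 1 higher. Il1b, the gene of a cytokine made mainly by myeloid cells, averaged 12.1 ± 2.82 CPM in tumors labelled Cd276KO and 62.5 ± 38.2 CPM in control tumors (log2 fold change -2.36, SE 0.46, edgeR adjusted p = 0.0405). Control tumor 3 had 106 CPM of Il1b and the other 2 control tumors 44.4 and 36.8 CPM, and the log2 fold change without it was -1.67 (edgeR adjusted p = 0.00647). Ltb, a lymphotoxin that feeds the slower branch, averaged 17.2 ± 6.71 CPM in tumors labelled Cd276KO and 3.80 ± 0.917 CPM in control tumors (log2 fold change 2.22, SE 0.40, edgeR adjusted p = 0.0351). Of the 6 fits without 1 library, the calls of Tnfaip3, Otulin, Irak4, Myd88, Il1b and Ltb held in 1, the one without control tumor 3, and that of Il1rap in the 3 without a control tumor. The calls of this comparison, that of Nfkbie among them, depend on single libraries: without control tumor 1, 2 or 3 the edgeR test called 353, 263 or 1685 genes, and without 1 of the tumors labelled Cd276KO it called 0 or 1.

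In tumors over cells, ligands such as Il1b and Tnf passed the filter through the tumors, so their calls are not counted. Il1b had 1 count in the 3 HM-1 cultures labelled Cd276KO and 0 in the HM-1 control cultures, and no fold is given against them. In ID8 over HM-1 control cells, 28.8% of all genes were called higher and 29.6% lower. Of 9 receptors tested 5 were higher and 4 lower, and of 23 adaptors and kinases 7 were higher and 7 lower. Of 12 negative regulators 4 were higher and 2 lower, the latter Nfkbid and Irak3. Traf1, a known NF-kB target, averaged 1.17 ± 0.291 CPM in ID8 and 58.3 ± 4.24 CPM in HM-1 controls, a log2 fold change of -5.68 (SE 0.19, edgeR adjusted p = 1.37e-07). Traf2 averaged 99.1 ± 3.27 CPM in ID8 and 39.2 ± 4.39 CPM in HM-1 controls, a log2 fold change of 1.29 (SE 0.11, edgeR adjusted p = 2.66e-05). Tnip1, a partner of Tnfaip3, averaged 247 ± 11.5 CPM in ID8 and 58.3 ± 4.22 CPM in HM-1 controls, a log2 fold change of 2.04 (SE 0.093, edgeR adjusted p = 5.93e-07). Tnfaip3 averaged 31.9 ± 3.80 CPM in ID8 and 8.35 ± 1.83 CPM in HM-1 controls (log2 fold change 1.88, SE 0.17, edgeR adjusted p = 3.03e-05).

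The genes whose pattern over the 6 group means was nearest to each member were found by Euclidean distance of centred log2(CPM + 0.5) among 10374 protein-coding genes. For Nfkbie the nearest was Tpd52 at a distance of 0.16, followed by Ttc39c at 0.40. Tpd52 averaged 166 CPM in ID8 cells labelled Cd276KO and 142 CPM in ID8 controls, 58.2 CPM in tumors labelled Cd276KO and 120 CPM in control tumors, and 26.3 CPM in HM-1 cells labelled Cd276KO and 51.3 CPM in HM-1 controls. For Nfkbiz the nearest was Tsc22d3 at 0.24, with 6.08 CPM in ID8 cells labelled Cd276KO and 17.8 CPM in ID8 controls, 23.5 CPM in tumors labelled Cd276KO and 26.8 CPM in control tumors, and 4.77 CPM in HM-1 cells labelled Cd276KO and 5.81 CPM in HM-1 controls. Nfkbib was nearest to Elf1 at 0.10 and Nfkb2 to Atp6v1f at 0.07. Relb was nearest to Marc2 at 0.26, Nfkbia to Sdccag8 at 0.23, Bcl3 to Cpeb4 at 0.19, Rela to Ube2d2a at 0.09, Nfkb1 to Pip5k1a at 0.11 and Rel to Myl12a at 0.29. A distance over 6 means describes likeness in these groups only.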

How the data were processed

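The authors deposited raw read counts, 1 table of 54752 genes by 18 libraries with no scaling. The submitters' processing notes name Trim Galore, STAR, HTSeq and the build GRCm38 (mm10). Versions, annotation and strand setting: not given in the sources used here, so reads of genes that overlap or lie antisense may be shared. Each sample's title gave its group and number. Symbols, coordinates and transcript lengths came from GENCODE M21.

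Counts of the 6 libraries compared were tested with edgeR 4.0.16 in R 4.3.3 (TMM scaling, filterByExpr, robust glmQLFit and glmQLFTest) over all genes, with Benjamini-Hochberg adjustment and a threshold of 0.05. A difference between 2 knockout effects was an interaction term over 12 libraries. Standard errors (SE) were taken as the fold's size over the square root of F. The scripts were tested on simulated counts. The members and the pathway and marker lists were chosen with earlier results of these data known. All 10 members were named, with Cd276, the 2 called genes of each pathway list with the largest fold and a mean of at least 5 CPM, and the 2 protein-coding genes nearest to each member. The text describes part of the genes so taken. Alternatives were DESeq2 1.42.0, upper-quartile scaling, no filter on low counts, a replicate block, 1 fit over all 18 libraries and each library left out. A different gene length for the inhibitor to subunit ratio was added after seeing the data.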

Additional observations from a re-analysis of the deposited data

Results flagged for a closer look

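For 4 members the difference between ID8 and HM-1 cells in the effect of the Cd276KO label passed the edgeR interaction test at an adjusted p under 0.05. The effect in ID8 cells minus that in HM-1 cells was 1.24 on the log2 scale for Nfkbie, 0.81 for Nfkbib, 0.52 for Nfkb2 and -1.23 for Nfkbiz. Nfkbie rose by 0.26 in ID8 and fell by 0.99 in HM-1 cells labelled Cd276KO, and Nfkbib rose by 0.20 in ID8 and fell by 0.62 in HM-1 cells. Nfkbiz fell in both lines. Because 40.4% of all genes passed the same test, these differences are not particular to the members.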

How the results depend on the processing

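The following alternatives moved the number of members or genes called by about 1.5 times or more. In the fit over all 18 libraries, HM-1 cells had 4 members called in place of 6, ID8 cells had 3 members, all lower, and 4260 genes called, HM-1 tumors 4 members and 4001 genes, control tumors over control cells 9974 genes, and the tumor minus cell difference 848 genes. DESeq2 called 2 members and 2465 genes in HM-1 tumors and 953 genes for the tumor minus cell difference. Deviations of same-numbered samples from their group means correlated between -0.56 and 0.22. All were over 0.1 in 0 of 6 comparisons, and every sample correlated best with its own number in 0 of 6. In ID8 cells labelled Cd276KO and ID8 controls they were all positive, at 0.032 to 0.093. With 3 libraries per group these correlations cannot show whether same-numbered samples were paired, and the labels state no pairing. The replicate block called 0 members and 0 genes in HM-1 tumors. It called 5 members in HM-1 cells, 8 in ID8 cells, 3 in control tumors over control cells, 7 in tumors over cells labelled Cd276KO, 6 in ID8 over HM-1 controls, 0 for the tumor minus cell and 4 for the ID8 minus HM-1 difference.

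With 1 library left out, the members called ranged from 3 to 9 in HM-1 cells, 6 to 8 in ID8 cells, 0 to 1 in HM-1 tumors, 3 to 5 in control tumors over control cells, 7 to 8 in tumors over cells labelled Cd276KO, 5 to 8 in ID8 over HM-1 controls, 0 to 0 for the tumor minus cell and 4 to 5 for the ID8 minus HM-1 difference. The genes called ranged from 1725 to 7491 in HM-1 cells, 7115 to 7877 in ID8 cells, 0 to 1685 in HM-1 tumors, 4336 to 7072 in control tumors over control cells, 10113 to 11839 in tumors over cells labelled Cd276KO, 6882 to 10604 in ID8 over HM-1 controls, 225 to 913 for the tumor minus cell and 4941 to 7143 for the ID8 minus HM-1 difference. Fewer libraries enter these fits, yet some counts rose. Without HM-1 control 1, 7491 genes were called in HM-1 cells, where 3452 were with all 6 libraries. Without control tumor 3, 1685 genes were called in HM-1 tumors, where 826 were with all 6. The causes of these changes were not tested.

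Only folds that were not called changed sign. Under upper-quartile scaling, control tumors over control cells gave 0.019 for Nfkb1 and 0.13 for Rela, and tumors over cells labelled Cd276KO gave 0.12 for Rela. Without a filter on low counts, Nfkb2 was at -0.028 in tumors over cells labelled Cd276KO. With 1 library left out, HM-1 cells gave -0.21 to 0.039 for Nfkb1 and -0.33 to 0.10 for Rel, and ID8 cells -0.13 to 0.0085 for Bcl3 and -0.095 to 0.0077 for Cd276. HM-1 tumors gave -0.015 to 0.24 for Rela and -0.42 to 0.041 for Nfkbiz. Control tumors over control cells gave -0.051 to 0.37 for Rel and -0.16 to 0.058 for Rela. Tumors over cells labelled Cd276KO gave -0.012 to 0.16 for Nfkb2 and -0.15 to 0.030 for Rela. The tumor minus cell difference ran from -0.14 to 0.057 for Rela, -0.18 to 0.25 for Nfkbia and -0.24 to 0.15 for Nfkbib, and the ID8 minus HM-1 difference from -0.034 to 0.15 for Bcl3.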
